A study of Mus musculus with 9 samples.

Results

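The interferon-induced transmembrane genes Ifitm1, Ifitm2, Ifitm3 and Ifitm6 were followed across 9 mouse spleen RNA-seq libraries. They are 4 of the 21965 genes counted in the series. The 4 genes were chosen by name, with measured values of these libraries already known: they were selected on the difference between BWF1 and BALB/c mice, in which Ifitm1 and Ifitm2 stood out. Their levels in those strain comparisons are therefore given as a description with no test. The comparison of BWF1 females with BWF1 males was tested. Of the 4 genes, 3 passed the filter on low counts, and Ifitm6 did not.

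IFITM proteins are small membrane proteins that sit in the plasma membrane and in endosomes, where they hinder the fusion of enveloped viruses with the host membrane. Interferons induce several of them, and many leukocytes also express them without an infection. IFITM1 is found mostly at the cell surface, whereas IFITM2 and IFITM3 carry an endocytic sorting signal and are found in endosomes. In lymphocytes, IFITM proteins associate with the tetraspanin CD81.

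In the mm10 assembly, the 4 genes lie beside each other on chromosome 7. Ifitm2 (ENSMUSG00000060591) spans chr7:140954837-140955987 on the minus strand. Ifitm1 (ENSMUSG00000025491) spans chr7:140967221-140969825 on the plus strand. Ifitm3 (ENSMUSG00000025492) spans chr7:141009586-141010770 on the minus strand, and Ifitm6 (ENSMUSG00000059108) spans chr7:141015699-141017924 on the minus strand. Their coding sequences are close copies. In the GENCODE M21 transcripts, Ifitm2 and Ifitm3 were identical at 80.8% of aligned coding bases, Ifitm1 and Ifitm2 at 81.6%, and Ifitm1 and Ifitm3 at 81.9%. Ifitm6 stood further off, at 63.5% to 68.8% identity with the others. The longest run that Ifitm2 and Ifitm3 share is shown because a read lying within it cannot be assigned to one of the genes. It runs from coding base 130 to 198 of Ifitm2 and from 133 to 201 of Ifitm3, and the capitals mark the 40 bases that Ifitm1 holds as well:
Ifitm2 and Ifitm3 coding run: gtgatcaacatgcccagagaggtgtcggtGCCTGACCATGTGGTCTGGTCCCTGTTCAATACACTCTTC
Such runs were a small part of the transcripts. Of the 50-base words in Ifitm2 transcripts, 3.3% also occurred in another of the 4 genes, against 1.42% for Ifitm1, 5.56% for Ifitm3 and 0% for Ifitm6. Ifitm2 shared far more with genes outside the family list: 48.5% of its 50-base words and 34.9% of its 100-base words occurred in transcripts of other genes, among them Gm45717, Gm11951 and Gm8865. Of the 655 exon bases of Ifitm2, 268 (40.9%) also belong to Gm45717, a gene model on the same strand. Gm45717 had 0 counts in all 9 libraries, and the part of this overlap in the Ifitm2 counts was not tested. The exons of Ifitm1, Ifitm3 and Ifitm6 overlapped no other counted gene.

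The stretches before the RefSeq start sites (GRCm38.p6) are shown because Ifitm1 and Ifitm2 differed between the strains while Ifitm3 did not follow them. Each reads along its own gene's strand and is trimmed to lie outside the annotated exons of that gene. Capitals mark a match to the core of the interferon-stimulated response element (GAAA, 2 bases of any kind, GAAA), the element bound by interferon-activated STAT and IRF factors.
Ifitm2, chr7:140955988-140956091, minus strand: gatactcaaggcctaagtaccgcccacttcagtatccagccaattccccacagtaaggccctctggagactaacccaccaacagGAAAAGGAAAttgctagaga
Ifitm1, chr7:140967946-140968027, plus strand: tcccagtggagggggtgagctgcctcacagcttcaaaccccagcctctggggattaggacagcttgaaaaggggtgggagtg
Ifitm3, chr7:141010771-141010874, minus strand: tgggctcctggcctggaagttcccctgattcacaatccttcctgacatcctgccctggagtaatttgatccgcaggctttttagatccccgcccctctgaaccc
In the 250 bases before the start, searched on both strands, this core occurred once in Ifitm2, beginning at position -46, and in none of the windows of the other 3 genes. A single RefSeq start was searched for each gene. The windows of Ifitm1 (chr7:140967826-140968125) and Ifitm6 (chr7:141016843-141017142) lie inside the annotated genes, whose GENCODE starts further upstream were not searched. It occurred in 2.98% of 32851 RefSeq promoter windows of the same length. The interferon-gamma motif GAS, TTCNNNGAA, occurred once in the Ifitm6 window and in none of the other 3, against 7.02% of all windows. A match is a match of letters in the reference sequence only.

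The groups were 3 libraries from BWF1 (NZB x NZW F1) females, 3 from BWF1 males and 3 from BALB/c females, all 16 weeks old. BWF1 females are the lupus-prone group of the study, and BWF1 males and BALB/c females its non-lupus-prone groups. No treatment is named, and the labels do not say whether a library came from 1 spleen or from several. The strain comparison in males cannot be made, and BWF1 males against BALB/c females differ in both strain and sex.

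The labels disagree on the material: the series text speaks of whole splenocytes, and the sample labels of sorted CD11b+F4/80+ splenic macrophages. The defining markers went against a macrophage sort. Per kb of exon, the B cell gene Ms4a1 averaged 51.1 to 59.2 on the counts-per-million scale (CPM) over the 3 groups. Adgre1, which encodes F4/80, averaged 2.25 to 4.72, and Itgam, which encodes CD11b, averaged 0.107 to 1.10. The libraries are called spleen libraries here. Counts in genes ranged from 458608 to 4305003 a library, and 1 gene, Lars2, took 42.3% to 76.6% of them. The scaling factors (trimmed mean of M values, TMM) had their lowest value, 0.530, in BWF1 male 1 and their highest, 1.40, in BALB/c female 2. The column names carry a tag, ORIG in BWF1 female 2, BWF1 male 2 and all 3 BALB/c libraries, and RL in the other 4, and its meaning is not given in the sources used here. At these depths 3 counts were worth 0.625 CPM in BWF1 male 3 and 6.62 CPM in BWF1 female 1.

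Ifitm2, the most abundant of the 4 genes in BWF1 spleens, was several-fold higher there than in BALB/c spleens. Its counts were 12, 18 and 17 in the BWF1 female libraries, 20, 99 and 335 in the BWF1 males, and 9, 11 and 5 in the BALB/c females. After TMM scaling, the BWF1 female libraries stood at 26.5, 29.0 and 34.9 CPM, the male ones at 39.2, 101.5 and 69.8 CPM, and the BALB/c ones at 6.47, 7.23 and 4.96 CPM. The 3 groups did not overlap in any pair: every BALB/c library was lowest, and every BWF1 male library lay above every BWF1 female library. In the same order, the means were 30.1 ± 4.3, 70.2 ± 31 and 6.22 ± 1.2 CPM (SD, n = 3 each). The fitted log2 fold change against BALB/c females was 2.24 (SE 0.32) for BWF1 females and 3.48 (SE 0.30) for BWF1 males. These were the 19th and 8th highest values of 7719 genes tested. In bulk RNA, fewer cells of a type and less RNA per cell cannot be told apart.

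Ifitm1 showed the same order of strains at a lower level. Its counts were 7, 9 and 12 in BWF1 females, 9, 27 and 142 in BWF1 males, and 5, 1 and 7 in BALB/c females. The scaled levels of the BWF1 female libraries were 15.4, 14.5 and 24.6 CPM, those of the males 17.7, 27.7 and 29.6 CPM, and those of BALB/c 3.59, 0.657 and 6.94 CPM. All 6 BWF1 libraries lay above all 3 BALB/c libraries, and the BWF1 females and males overlapped. The BALB/c values rest on 13 counts in all, with a single count in BALB/c female 2. The log2 fold change was 2.36 (SE 0.48) for BWF1 females and 2.87 (SE 0.44) for BWF1 males against BALB/c females, the 16th and 14th highest of the genes tested. These values were 1.80 and 2.32 without BALB/c female 2, and 3.07 and 3.58 without BALB/c female 3.

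Ifitm3, the member best known for restricting viruses that enter through endosomes, did not share this order. Its counts were 11, 9 and 12 in BWF1 females, 6, 11 and 130 in BWF1 males, and 29, 36 and 14 in BALB/c females. Scaled, the BWF1 female libraries held 24.3, 14.5 and 24.6 CPM, the males 11.8, 11.3 and 27.1 CPM, and the BALB/c libraries 20.8, 23.7 and 13.9 CPM. All 3 groups overlapped, and BWF1 male 3 lay above the other males. The log2 fold change was 0.09 (SE 0.36) for BWF1 females and -0.10 (SE 0.33) for BWF1 males against BALB/c females. Without BWF1 male 3, the second value was -0.76.

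**Figure D1:**
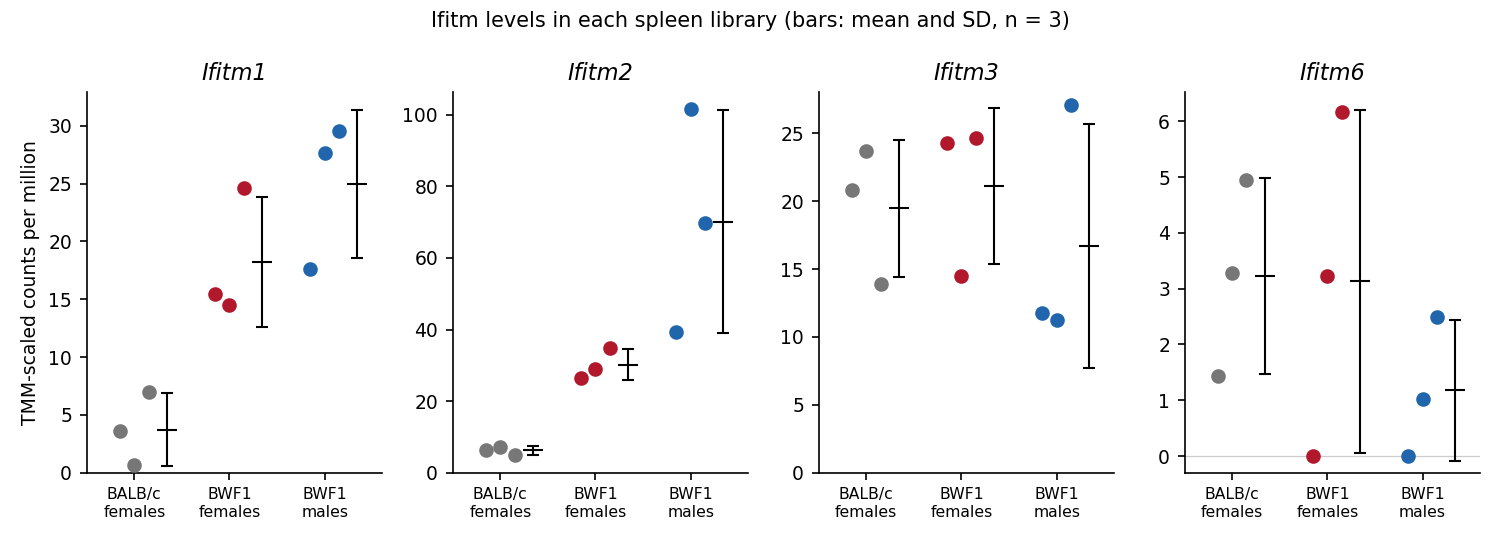
TMM-scaled CPM of the 4 genes, 1 point a library, with group mean and SD (n = 3); each panel has its own axis. Ifitm1 and Ifitm2 were higher in every BWF1 library than in every BALB/c library, whereas the groups overlapped for Ifitm3 and Ifitm6.

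Ifitm6, a member known from bone marrow and myeloid cells, was near the limit of detection. Its counts were 0, 2 and 3 in BWF1 females, 0, 1 and 12 in BWF1 males, and 2, 5 and 5 in BALB/c females. The 0 in BWF1 female 1 allows up to 6.62 CPM and the 0 in BWF1 male 1 up to 5.88 CPM, covering counting error only, so no difference was detectable at this depth. Of the remaining family genes, Ifitm5, known from bone-forming cells, had 3 counts in BWF1 male 2, 1 count in BWF1 male 3 and 0 elsewhere. Ifitm7 had 0 counts in all 9 libraries. Ifitm10 had 0, 1 and 0 counts in BWF1 females, 0, 7 and 11 in BWF1 males, and 4, 8 and 4 in BALB/c females.

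Exon lengths differ between the genes, so their order was read per kb of exon. In BALB/c spleens the order was Ifitm3 at 28.7 ± 7.4 CPM per kb, Ifitm2 at 9.49 ± 1.8, Ifitm6 at 3.57 ± 1.9 and Ifitm1 at 3.41 ± 2.9 (SD, n = 3 each). The last pair did not differ beyond its spread. In BWF1 females Ifitm2 came first at 46.0 ± 6.6 CPM per kb, followed by Ifitm3 at 31.2 ± 8.5, Ifitm1 at 16.6 ± 5.1 and Ifitm6 at 3.46 ± 3.4 (SD, n = 3 each). In BWF1 males Ifitm2 stood at 107.1 ± 48 CPM per kb, above Ifitm3 at 24.6 ± 13, Ifitm1 at 22.8 ± 5.9 and Ifitm6 at 1.30 ± 1.4 (SD, n = 3 each). There Ifitm3 and Ifitm1 did not differ beyond their spread.

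The strain difference in members was thus a change of order, and it can be read without any scaling between libraries. In BWF1 female 1 that order rested on 12 counts of Ifitm2 and 11 of Ifitm3. Shares within a library still depend on how reads map, and mapping by strain was not tested. Ifitm2 made up 23.7%, 23.4% and 26.3% of the summed Ifitm2 and Ifitm3 counts in the BALB/c libraries. The same share was 52.2%, 66.7% and 58.6% in BWF1 females and 76.9%, 90% and 72.0% in BWF1 males. The groups did not overlap, with means of 24.5% ± 1.6, 59.2% ± 7.3 and 79.7% ± 9.3 (SD, n = 3 each). The exact (Clopper-Pearson) 95% intervals of single libraries were wide, from 30.6% to 73.2% in BWF1 female 1 and from 9.15% to 51.2% in BALB/c female 3, and covered counting error only. Between BWF1 females and males, the exact two-sided permutation test gave p = 0.1, the smallest value that 3 against 3 libraries allow. The share of Ifitm1 in the summed Ifitm1 and Ifitm3 counts was 14.7%, 2.70% and 33.3% in BALB/c females, 38.9%, 50% and 50% in BWF1 females, and 60%, 71.1% and 52.2% in BWF1 males. Here too the groups did not overlap, and the exact permutation test between the BWF1 sexes gave p = 0.1. With 2 such tests, the Benjamini-Hochberg adjusted values were the same.

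**Figure D2:**
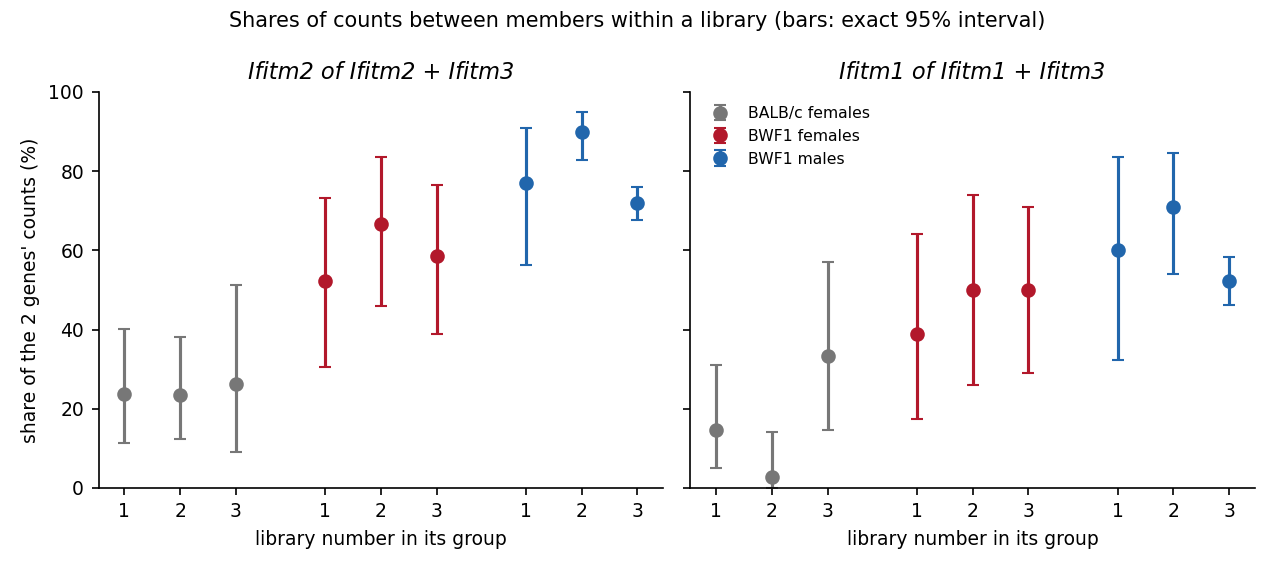
Share of Ifitm2 in Ifitm2 and Ifitm3 counts, and of Ifitm1 in Ifitm1 and Ifitm3 counts, in percent for each library, with exact 95% intervals for counting error. The Ifitm2 share was 23.4% to 26.3% in BALB/c libraries, 52.2% to 66.7% in BWF1 females and 72.0% to 90% in BWF1 males.

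Both strain comparisons use the same 3 BALB/c libraries. Of the 3 tested members, 2 passed an adjusted p under 0.05 as higher in BWF1 females than BALB/c females, where 1.79% of all tested genes were higher and 2.03% lower. The same 2 passed as higher in BWF1 males than BALB/c females, beside 1.67% of all tested genes higher and 1.85% lower. The members were chosen for this contrast, so nothing is read from those counts.

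Between the sexes of BWF1 mice, Ifitm2 was lower in females. Its log2 fold change, females against males, was -1.24 (SE 0.28, adjusted p = 0.0148, edgeR quasi-likelihood test), or 2.36-fold higher in males. The BWF1 libraries tested here also entered the strain difference on which the genes were selected, so this p may not be free of that selection. Ifitm1 had a log2 fold change of -0.51 (SE 0.40, adjusted p = 0.563) and Ifitm3 of 0.19 (SE 0.36, adjusted p = 0.852), and neither passed the test. Thus 1 of 3 tested members was called lower and 0 higher, where 1.23% of the 7719 tested genes were lower and 0.959% higher. Only 1 of the 3 had an unadjusted p under 0.05, beside 1266 of the 7719 tested genes. Whether the sex difference of Ifitm2 exceeds that of Ifitm1 was not tested.

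The Ifitm2 call depended on single libraries. Its adjusted p was 0.0628 without BWF1 female 1, 0.0518 without BWF1 female 2, 0.15 without BWF1 male 2 and 0.0659 without BWF1 male 3. Without BWF1 male 2, the highest library, the log2 fold change fell in size to -0.89. The call held with the column tag as a term in the fit (-1.19, adjusted p = 0.0128). Within the ORIG tag the 1 BWF1 female library held 29.0 CPM of Ifitm2, the 1 male library 101.5 CPM and the BALB/c libraries 4.96 to 7.23 CPM. Within the RL tag it stood at 26.5 and 34.9 CPM in females and 39.2 and 69.8 CPM in males.

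Markers of several cell types moved with Ifitm2 between the sexes, and erythroid genes, given further below, went the other way. Of all tested genes, 1.23% were called lower and 0.959% higher in BWF1 females than in males. Of 10 tested macrophage genes, 5 were called lower in BWF1 females than in males, among them Csf1r, the receptor for macrophage colony-stimulating factor (log2 fold change -1.62). The 12 genes of the macrophage list summed to 801 to 947 CPM for BWF1 females and 1269 to 1497 CPM for their males. BALB/c stood at 1133 to 1368 CPM. That list includes Ptprc, which all leukocytes express, and its part in the sum was not separated. Of 6 tested natural killer cell genes, 4 were called lower in BWF1 females than in males, and all 8 summed to 79.1 to 84.2, 268 to 284 and 109 to 145 CPM in the same order of groups. Of the 12 T cell genes, 7 were called lower in BWF1 females than in males. The 13 monocyte genes summed to 478 to 530, 739 to 827 and 830 to 858 CPM, and Chil3 was at 0 in both BWF1 groups. The 8 conventional dendritic cell genes summed to 185 to 195, 249 to 261 and 272 to 302 CPM, and 1 of 5 tested, Sirpa, was called lower in BWF1 females than in males (log2 fold change -0.73). The 7 plasma cell genes summed to 563 to 834, 1256 to 2075 and 682 to 825 CPM. Of 6 tested plasma cell genes, 1, Jchain, was called lower in BWF1 females than in males (log2 fold change -1.66). Jchain encodes the joining chain of polymeric antibodies. It averaged 392 CPM in BWF1 females and 1239 CPM in their males, where the plasma cell sums averaged 731 and 1612 CPM. The difference in these sums thus rested mostly on Jchain. Of the 6 tested genes, 2 were higher and 4 lower in females, with a median log2 fold change of -0.18. The 13 neutrophil genes, whose groups overlapped, summed to 205 to 450, 323 to 783 and 306 to 423 CPM. No gene of the macrophage, natural killer, T cell, conventional dendritic cell or plasma cell lists was at 0 in a group. The BALB/c libraries, lowest in Ifitm1 and Ifitm2, thus lay above the BWF1 females for the macrophage and monocyte sums.

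Among the progenitor markers, Ly6a, which encodes the Sca-1 antigen, followed the strain order of Ifitm1 and Ifitm2. It averaged 53.7 ± 24 CPM in BWF1 females, 84.8 ± 14 CPM in their males and 7.16 ± 1.4 CPM in BALB/c (SD, n = 3 each), and it was the only gene of the 4 tested called in either strain comparison. Of all tested genes, 1.79% and 1.67% were called higher in the female and male strain comparisons. All 8 progenitor genes summed to 86.2 to 134, 123 to 135 and 60.5 to 67.0 CPM. The 7 without Ly6a, which was left out after its values were seen, summed to 59.5 to 61.8, 39.2 to 53.5 and 53.5 to 61.1 CPM, so the order of the whole list rested on Ly6a. The median log2 fold change of the 4 tested genes was 0.08 and -0.21 in the female and male strain comparisons. The 7 megakaryocyte and platelet genes summed to 41.1 to 46.8, 23.6 to 43.2 and 12.9 to 17.1 CPM in the same order, with Gp1bb at 0 in all groups. The 12 erythroid genes went the other way between BWF1 males and BALB/c females, with 8 of 10 tested called lower, and Hba-a2 was at 0 in both BWF1 groups. Of all tested genes, 1.85% were lower there. Between the BWF1 sexes erythroid genes moved against Ifitm2, with 8 higher and 1 lower in females (median log2 fold change 1.53). Their sums overlapped, and 1 of 10 was called higher, Epb42 (3.00). Of 6 stromal and endothelial genes tested, 2 were higher and 4 lower in females, and 1, Col1a2, was called higher (3.52). Of all tested genes, 0.959% were higher there. The part of cell composition in the Ifitm values was not tested.

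Over the 9 libraries, Ifitm1 and Ifitm2 had a Pearson correlation of log2 CPM of 0.87, whereas Ifitm3 had -0.18 with Ifitm1 and -0.15 with Ifitm2. These are descriptions over libraries that share group and depth. Of all tested genes, those most like Ifitm2 over the 9 libraries were Dhrs3 (r = 0.97), Ly6e (0.96), Ackr3 (0.96), Coro2a (0.94) and H2-Q2 (0.93). Ly6e encodes a surface protein of lymphocytes that interferon induces, and Ackr3 an atypical chemokine receptor. Those most like Ifitm1 were Emid1 (r = 0.96), Rflnb (0.95), Stk10 (0.94), Gm12185 (0.94) and Padi2 (0.93). Those most like Ifitm3 were Trappc12 (r = 0.91), Crtc3 (0.90), Lrrk1 (0.90), Armc8 (0.89) and Kif20a (0.87). The 3 sets had no gene in common.

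The genes beside the cluster were read in the same fit. Within 500 kb of the 4 genes, 57 other genes were counted and 19 could be tested. For BWF1 females against BALB/c females, 0 of these 19 were called higher and 1 lower, beside 1.79% and 2.03% of all tested genes, and their median log2 fold change was -0.07 beside 0.00 over all tested genes. For BWF1 males against BALB/c females, 0 of 19 were called in either direction, beside 1.67% higher and 1.85% lower of all tested genes, with 4 at an unadjusted p under 0.05, and the median was 0.05. With so few genes these counts lie near the background share and set the neighbours apart in neither direction. For BWF1 males against BALB/c females DESeq2 called 0 and limma-voom 1. Between the BWF1 sexes 0 of 19 passed in edgeR, in DESeq2 and in limma-voom, with 4 at an unadjusted p under 0.05. Their median was -0.06. DESeq2 gave some genes, Ifitm2 among them, no adjusted p between the sexes and could not call them. Of all 7719 tested genes, 1260 had an unadjusted p under 0.05 in BWF1 males against BALB/c females, and 1266 between the BWF1 sexes. Limma-voom called 650 and 246 genes there. The nearest tested neighbour on the Ifitm2 side, Pgghg, had log2 fold changes of 0.91 (adjusted p = 0.136) and 0.67 (adjusted p = 0.275) in the female and male strain comparisons.

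The called neighbour was Irf7, which encodes the master transcription factor of the type I interferon response and lies at chr7:141262706-141266481. It went the other way from Ifitm1 and Ifitm2: BWF1 females had 12.7 ± 4.8 CPM, their males 14.6 ± 5.4 CPM and BALB/c females 28.8 ± 5.0 CPM (SD, n = 3 each). The log2 fold change was -1.21 (SE 0.34, adjusted p = 0.0463) for BWF1 females and -0.95 (SE 0.30, adjusted p = 0.0861) for BWF1 males against BALB/c females. The call for females lay close to the threshold. It was lost without BWF1 female 2 (adjusted p = 0.195), BWF1 female 3 (0.0866), BWF1 male 3 (0.0574), BALB/c female 1 (0.0564), BALB/c female 2 (0.156) or BALB/c female 3 (0.140), and with DESeq2 (0.194), limma-voom (0.10), library size alone (0.0632) or the tag term (0.248).

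**Figure D3:**
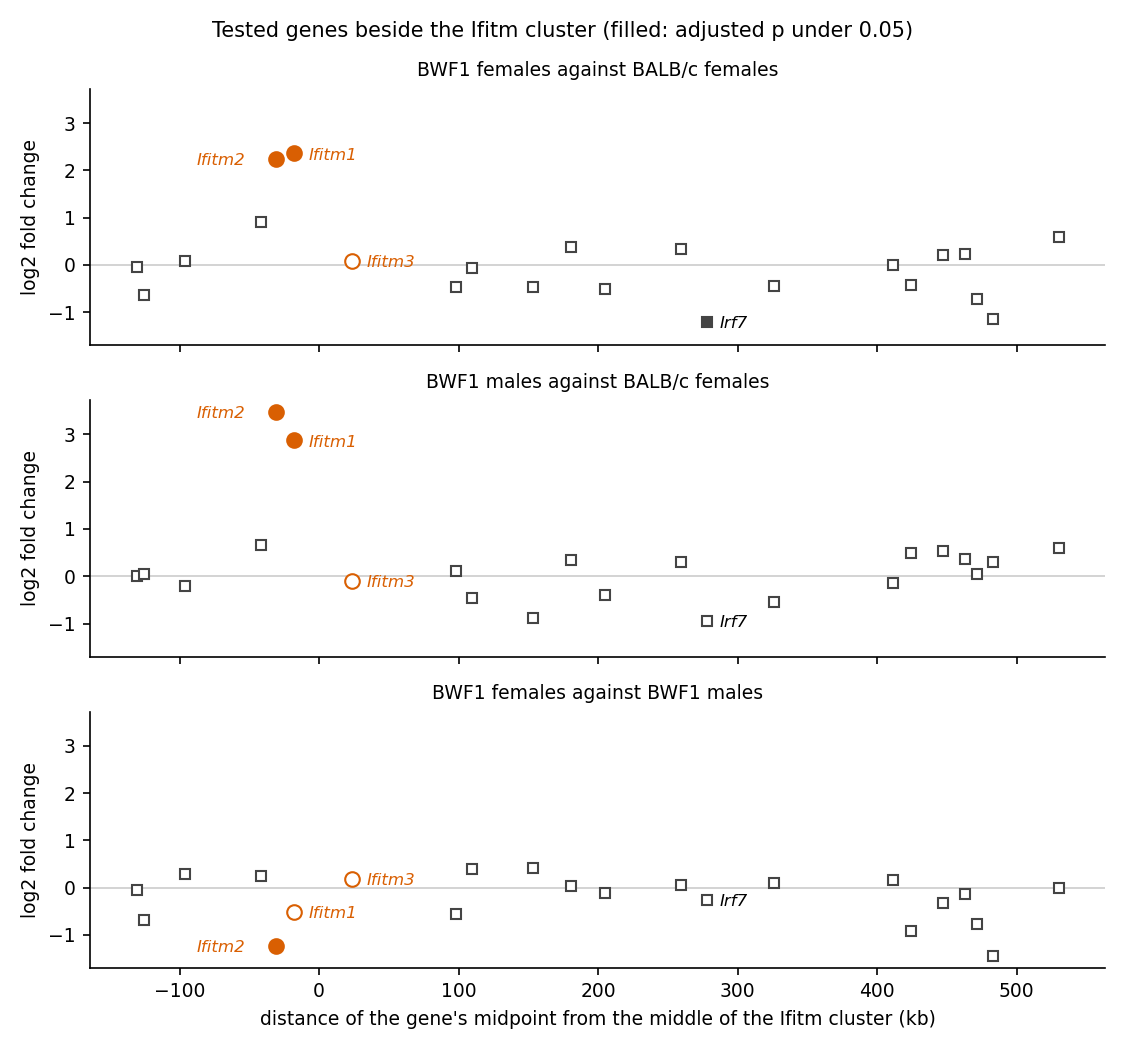
Log2 fold change (y) of Ifitm1, Ifitm2 and Ifitm3 (orange circles) and of 19 tested neighbours (squares) against the distance in kb of each gene from the middle of the cluster, in 3 comparisons; filled symbols had an edgeR adjusted p under 0.05. Ifitm1 and Ifitm2 lay at 2.24 or more in both strain comparisons, whereas Ifitm3 lay between -0.10 and 0.19 in all 3. The Ifitm genes were chosen on the strain difference, so their filled circles in the strain comparisons are a description and no test.

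Other genes of the interferon system were counted from lists. Of all 7719 tested genes, 1260 had an unadjusted p under 0.05 in BWF1 males against BALB/c females, and 1266 between the BWF1 sexes. Limma-voom called 650 and 246 genes in these comparisons. Between the sexes DESeq2 gave some genes, Ifitm2 among them, no adjusted p and could not call them. The signalling list holds receptors, Janus kinases, STAT and IRF factors and their inhibitors. Of its 16 tested genes, Irf7 was the only one called, lower in BWF1 females than BALB/c females, where 2.03% of all tested genes were lower and 1.79% higher, and the median log2 fold change was -0.13. None of the 16 was called in BWF1 males against BALB/c females by edgeR (2 at an unadjusted p under 0.05; 0 by DESeq2 and 1 by limma-voom). Between the BWF1 sexes none passed in edgeR, in DESeq2 or in limma-voom (2 at an unadjusted p under 0.05). The lowest p there was that of Ifngr1, a chain of the interferon-gamma receptor, at 46.3 ± 15 CPM in females and 78.3 ± 5.8 CPM in males (SD, n = 3 each; log2 fold change -0.74, adjusted p = 0.0757 by edgeR).

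Of 22 tested interferon-stimulated genes, 0 were called higher and 2 lower in BWF1 females than BALB/c females, with a median log2 fold change of -0.05. Against the same 1.79% and 2.03% of all tested genes, counts this small in lists of 16 and 22 set neither list apart. The 2 were Irf7 and Samd9l, which encodes an interferon-induced inhibitor of translation and cell growth. Samd9l had a log2 fold change of -1.10 (SE 0.23, adjusted p = 0.00391), and its adjusted p was 0.0587 without BALB/c female 1 and 0.0674 with the tag term. Between BWF1 males and BALB/c females, edgeR called 0 of 22 (6 at an unadjusted p under 0.05, 0 by DESeq2, 2 by limma-voom). The median was -0.09. Of all 7719 tested genes, 1260 had such a p there, and limma-voom called 650. Between the BWF1 sexes edgeR called 0 of 22 (3 at an unadjusted p under 0.05, 0 by DESeq2, 1 by limma-voom). The median was -0.18. Of all tested genes, 1266 had such a p between the sexes, and limma-voom called 246. Rsad2, which encodes the antiviral enzyme viperin, had the lowest p in that comparison, at 41.2 ± 8.8 CPM in females and 13.9 ± 17 CPM in males (SD, n = 3 each; log2 fold change 1.97, adjusted p = 0.0511 by edgeR).

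The list of other restriction factors, which overlaps the previous one, held 1 gene with the strain pattern of Ifitm1 and Ifitm2. Apobec3, which encodes a cytidine deaminase that blocks retroviruses, averaged 107.6 ± 21 CPM in BWF1 females, 93.6 ± 11 CPM in their males and 18.4 ± 7.6 CPM in BALB/c (SD, n = 3 each). It was called higher in both strain comparisons, with log2 fold changes of 2.56 (SE 0.25, adjusted p = 3.52e-07) and 2.35 (SE 0.25, adjusted p = 5.89e-07). It was 1 of 15 tested restriction factors called higher in each, beside 1.79% and 1.67% of all tested genes, and the medians of the list were -0.07 and -0.08. A single call in 15 genes does not set the list apart. March8, which encodes a ubiquitin ligase that lowers viral envelope proteins, was called lower in BWF1 males than BALB/c females (log2 fold change -1.73, SE 0.43, adjusted p = 0.0213), beside 1.85% of all tested genes. Its call was lost without BWF1 male 2 (adjusted p = 0.0962), BWF1 male 3 (0.126), BALB/c female 2 (0.170) or BALB/c female 3 (0.0644). Between the BWF1 sexes edgeR called 0 of 15 (3 at an unadjusted p under 0.05, 0 by DESeq2, 1 by limma-voom). Of all 7719 tested genes, 1266 had such a p between the sexes, and limma-voom called 246.

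The last list held 12 genes whose products associate with IFITM proteins or modify them, all of them tested. In BWF1 females against BALB/c females 1 was called lower and 0 higher, beside 2.03% and 1.79% of all tested genes, with a median of 0.14. A single call in 12 genes does not set the list apart. The called gene was Cr2, which encodes the complement receptor CD21, at 256.7 ± 56 CPM against 421.9 ± 52 CPM (SD, n = 3 each; log2 fold change -0.72, adjusted p = 0.00910 by edgeR). Its adjusted p was 0.0567 without BWF1 female 1, 0.0587 without BALB/c female 1, 0.101 with library size alone and 0.129 with the tag term. Of the 10 B cell marker genes tested, 4 were also called lower in that comparison, Cr2 among them, beside 2.03% of all tested genes. Cd81, which encodes the tetraspanin CD81, had log2 fold changes of -0.22 and 0.20 in the female and male strain comparisons, and neither was called. EdgeR called 0 of the 12 in BWF1 males against BALB/c females (3 at an unadjusted p under 0.05, 1 by DESeq2, 2 by limma-voom). It called 0 between the BWF1 sexes (2 at an unadjusted p under 0.05, 0 by DESeq2 and limma-voom). Of all 7719 tested genes, 1260 and 1266 had such a p in the same order, and limma-voom called 650 and 246.

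**Figure D4:**
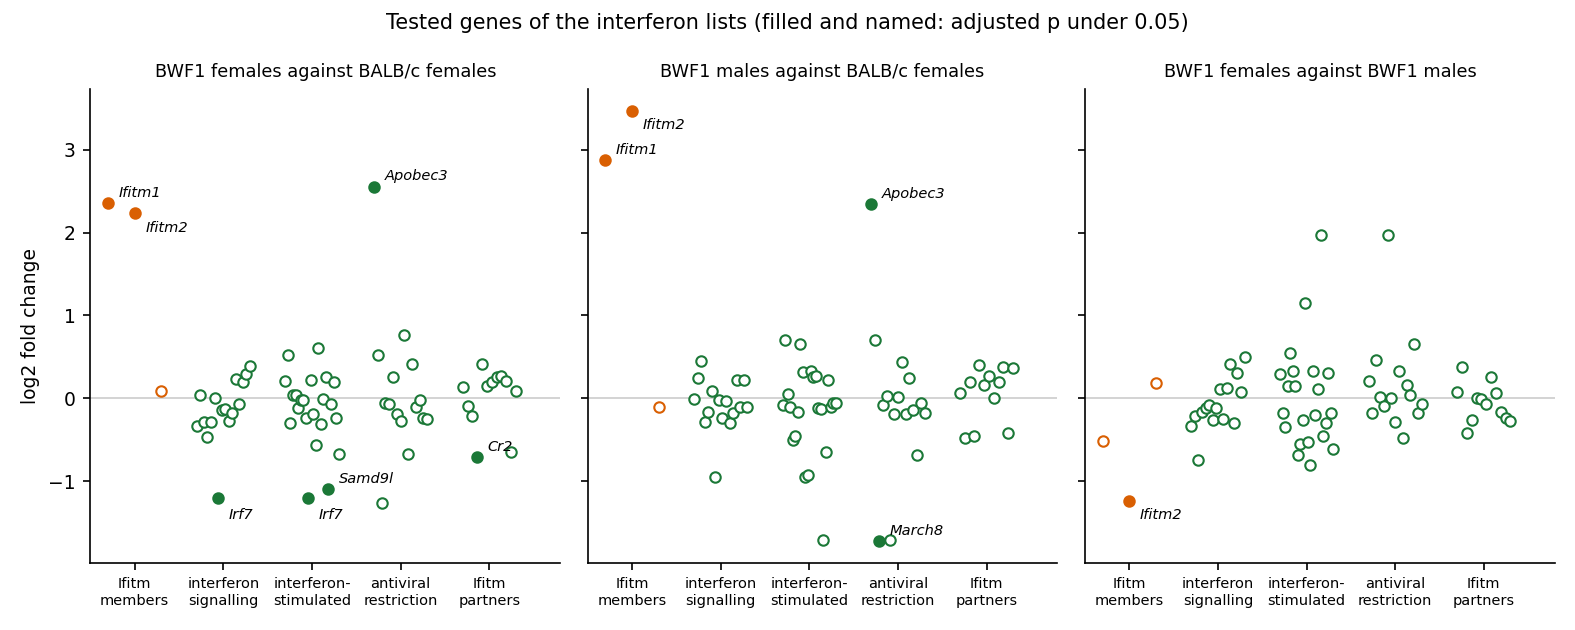
Log2 fold changes (y) of all tested genes of the Ifitm family and of 4 interferon lists (x), in 3 comparisons; filled and named points had an edgeR adjusted p under 0.05, and a gene on 2 lists is drawn in both. Ifitm1, Ifitm2 and Apobec3 were the points above 2 in the strain comparisons, and no point of the other lists was called between the BWF1 sexes. The Ifitm genes were chosen on the strain difference, so their filled points in the strain comparisons are a description and no test.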

How the data were processed

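RNA from 9 spleen libraries, 3 a group, was sequenced by the authors after ribosomal RNA depletion, per the labels' protocols. The deposited values are raw counts per Ensembl gene from HTSeq, per the file headers. The submitters' processing notes name STAR 2.6, FastQC 0.10.1 and the mm10 build; the annotation, the strand setting and the read length are not given in the sources used here. The mm10 reference is of another strain, C57BL/6J. Reads counted in genes were 1.29% to 2.82% of all those counted in a library. The series table and the library files held the same values.

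Of 21965 identifiers, 21939 matched GENCODE M21. Genes were filtered with filterByExpr (minimum count 10), which left 7719, scaled by TMM and tested with edgeR 4.0.16 (glmQLFit, glmQLFTest) over all 9 libraries with 3 contrasts and Benjamini-Hochberg adjustment over all tested genes. Genes were called at an adjusted p under 0.05. CPM are TMM-scaled, and correlations used log2 CPM with a prior count of 2. The p-values measure the spread between these libraries. The fit was tested on simulated data. DESeq2 1.42.0 and limma 3.58.1 served as alternatives. The members and the gene lists were chosen with earlier results of these data known. Named genes were all Ifitm genes, the 5 most correlated with each tested member, called neighbours within 500 kb, and up to 6 called genes a direction of the interferon lists (3 for marker lists), or the gene of lowest p where none was called; Pgghg, Cd81 and the defining cell markers were added after their values were seen.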

Additional observations from a re-analysis of the deposited data

How the results depend on the processing

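Ifitm1 and Ifitm2 kept higher values in both BWF1 groups than in BALB/c under all 20 alternatives. With library size alone the median gene moved by 0.15, -0.29 and -0.44 in the comparisons of BWF1 females with males, BWF1 females with BALB/c and BWF1 males with BALB/c. Ifitm2 then had log2 fold changes of -1.13 between the BWF1 sexes (adjusted p = 0.266, no longer called) and 1.95 between females, and 59 and 130 genes were called in the first 2 comparisons. With the column tag as a term, Ifitm2 was at 2.56 and Ifitm3 at -0.49 between females, Ifitm3 was at -0.74 in BWF1 males against BALB/c, and 160 and 153 genes were called in the 2 strain comparisons. Ifitm3, females against males, turned to -0.039 with limma-voom and to -0.031 with dispersions from estimateDisp, an alternative chosen after seeing the data. Leaving out 1 library gave Ifitm2 -1.47 to -0.89 and Ifitm3 -0.026 to 0.85 between the BWF1 sexes, and Ifitm3 -0.76 to 0.10 in BWF1 males against BALB/c. Gene calls between the BWF1 sexes numbered 169, and 304 with no filter, 105 with DESeq2, 98 with the 2 groups alone and 58 to 198 with 1 library left out. Against BALB/c, females had 295 calls, 169 with DESeq2 and 184 to 370 with 1 library left out; males had 272, and 433 without Lars2 in the library sizes, 510 with no filter, 650 with limma-voom, 484 with estimateDisp and 119 to 393 with 1 library left out. The split into higher and lower calls also moved with library size alone, to 45 and 14, 23 and 107, and 26 and 248. The causes were not tested. DESeq2 gave Ifitm1, Ifitm2 and Ifitm3 no adjusted p between the BWF1 sexes, and it could not call such genes. The unadjusted DESeq2 p of Ifitm2 was 0.000399. How many neighbours or list genes were left without an adjusted p was not counted. Same-numbered libraries did not deviate together (correlations -0.09 to 0.06), so the numbers do not pair them; with the replicate block, the 3 comparisons had 118, 255 and 240 calls, and Ifitm2 was at -1.18 between the BWF1 sexes (adjusted p = 0.0249), and Irf7 at -1.19 in BWF1 females against BALB/c (adjusted p = 0.0764, not called). Counts of 1 to 12 in single libraries limit what Ifitm1, Ifitm3 and Ifitm6 can show.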
